A study of Homo sapiens with 16 samples.

Results

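CXCL12 and CXCR4, a chemokine and the receptor it signals through, were followed through an estrogen time course in an endometrial and a breast cancer cell line. They were taken as the rows of these symbols in both deposited count tables, 2 of the 26364 genes listed in each. Ishikawa is a cell line from a human adenocarcinoma of the endometrium, and T-47D one from a human ductal carcinoma of the breast. Both lines were kept in hormone-depleted medium for 3 days according to the sample labels (the study's methods give a longer time), and were then given 10 nM 17β-estradiol (E2) for 0, 2, 4 or 8 h, where 0 h stands for vehicle. Each of the 8 groups had 2 replicates, which gave 16 libraries of poly(A) RNA. No gene was edited and no other agent was given in these libraries, and each line stands for its tissue as a single tumour-derived culture.

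CXCL12, also called SDF-1, is a small secreted protein that attracts leukocytes and stem cells and is made largely by stromal cells. It binds CXCR4, a receptor on the cell surface that signals through inhibitory G proteins and is then phosphorylated, bound by arrestins, ubiquitinated and sorted to the lysosome. It also binds ACKR3, a second receptor that recruits arrestins and removes the chemokine from the medium. E2 acts through the estrogen receptor, a transcription factor encoded by ESR1, and CXCL12 is known as an estrogen-responsive gene of breast cancer cells.

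On hg19 (GRCh37), CXCL12 (ENSG00000107562) lies on chromosome 10 from 44865613 to 44881941 on the minus strand, and its canonical transcript has 3 exons and 1928 bases in the GENCODE annotation. CXCR4 (ENSG00000121966) lies on chromosome 2 from 136871919 to 136876747, also on the minus strand, with 2 exons and 1668 bases. No other annotated gene overlapped either one. The 250 bases before each transcription start are shown because both genes changed in T-47D cells, in opposite directions. They are RefSeq sequences on GRCh38.p14, read along the gene's own strand at chr10:44385098-44385347 for CXCL12 and at chr2:136118150-136118399 for CXCR4, where the most upstream of 3 listed starts was taken. The capitals mark a single arm of the palindromic estrogen response element in CXCL12 and, in CXCR4, an NRF1 motif followed by a TATA box.
CXCL12: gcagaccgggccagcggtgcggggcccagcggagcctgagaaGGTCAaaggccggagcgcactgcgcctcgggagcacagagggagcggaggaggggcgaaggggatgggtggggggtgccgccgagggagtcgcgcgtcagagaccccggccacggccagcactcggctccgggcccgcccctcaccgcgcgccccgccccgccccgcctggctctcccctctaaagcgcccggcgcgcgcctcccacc
CXCR4: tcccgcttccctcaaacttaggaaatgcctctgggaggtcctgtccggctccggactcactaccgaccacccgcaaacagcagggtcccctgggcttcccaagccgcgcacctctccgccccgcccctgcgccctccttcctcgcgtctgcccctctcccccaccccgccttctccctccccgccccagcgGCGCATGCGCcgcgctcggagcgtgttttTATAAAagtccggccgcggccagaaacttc

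Neither promoter held the full estrogen response element GGTCANNNTGACC, which 14 of 35116 promoter windows of this length held (0.0399%). The single arm, searched as GGTCA or TGACC, occurred 1 time in CXCL12, from 208 to 204 bases before the start, and 0 times in CXCR4. It was present in 32.6% of all windows. The GC box, searched as GGGCGG or CCGCCC and partly overlapping itself, had 3 matches in each promoter and was present in 42.6% of windows. The motif of the factor NRF1, searched as GCGCANGCGC or GCGCNTGCGC, occurred in CXCR4 from 59 to 50 bases before the start and not in CXCL12, and was present in 5.07% of windows. TATAAA, read on the promoter strand alone, stood 30 to 25 bases before the CXCR4 start, was absent from the CXCL12 window, and was present in 6.8% of windows. Within 100 kb of the start on GRCh37, the full element had 0 matches around CXCL12 and 1 around CXCR4. That match lay in intergenic sequence at chr2:136818992-136819004, 56721 bases downstream of the start, and read GGTCAgtgTGACC, with both arms in capitals. Of 19866 protein-coding gene starts, 17% had at least 1 full match within the same distance. These are matches of letters, and binding was not measured in these libraries.

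Depth was 41177912 to 58918642 counts per Ishikawa library and 41223813 to 64148903 per T-47D library. All 5 epithelial markers were above 1 CPM (the count relative to the TMM-scaled library size) in both lines, all 5 endometrial markers in Ishikawa cells and 3 of 5 breast luminal markers in T-47D cells. T-47D cells had 0 of 5 endometrial markers above that level, and Ishikawa cells 1 of 5 breast luminal markers, TRPS1. The E2 target GREB1 went from 115 and 125 CPM untreated to 528 and 533 by 8 h in T-47D cells and from 8.47 and 9.17 to 24.4 and 31.1 in Ishikawa cells. Each of the 4 Ishikawa libraries of 4 h and 8 h was nearer, over genes with a mean of at least 1 CPM, to a library of the other time label than to its own replicate, whereas the other 12 libraries were nearest to their own replicate. The CXCR4 change in Ishikawa cells is therefore given by these labels and also with 4 h and 8 h as 1 group.

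CXCL12 was detected in T-47D cells and not in Ishikawa cells. The Ishikawa libraries had 0 counts for it at every time point, in all 8 libraries. The T-47D libraries held 799 and 597 counts before treatment, 6472 and 6277 after 2 h, 14244 and 11715 after 4 h, and 15479 and 15818 after 8 h. If each count is 1 fragment, a count of 0 allows up to 3 counts per library. On that basis Ishikawa cells lay at or below 0.0633 CPM at 0 h, and CXCL12 was at least 263-fold higher in untreated T-47D cells. The lower bound was 2380-fold at 2 h, 3220-fold at 4 h and 5480-fold at 8 h. These bounds cover counting error only. Most small counts were even numbers, so a count need not be 1 fragment. With halved counts the bound at 0 h was 131-fold, and the later bounds were not recomputed. Between untreated lines, 81.9% of 17090 genes tested differed at an adjusted p under 0.05, and line and culture handling cannot be told apart.

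CXCL12 rose in T-47D cells at every time point of E2. Its expression was 18.45 and 14.77 CPM before treatment, 138.7 and 151.6 after 2 h, 227.4 and 232.4 after 4 h, and 317.4 and 323.1 after 8 h. The 4 pairs of libraries did not overlap, and each later pair lay wholly above the one before it. The group means were 16.6 ± 2.60 CPM (SD, n = 2), 145 ± 9.13, 230 ± 3.47 and 320 ± 3.97. The log2 fold change against 0 h was 3.12 at 2 h (SE 0.0732, adjusted p = 1.2e-14, quasi-likelihood test of edgeR with Benjamini-Hochberg adjustment), or 8.67-fold. It was 3.78 at 4 h (SE 0.0735, adjusted p = 4.82e-16), or 13.8-fold, and 4.27 at 8 h (SE 0.0743, adjusted p = 7.38e-17), or 19.2-fold. The share of all T-47D genes that were called up was 4.9% at 2 h, 11.1% by 4 h and 15.4% by 8 h. Of the 15594, CXCL12 had the smallest p at each time point. Counted from the largest rise in log2 fold change, it ranked 25 at 2 h, 18 at 4 h and 14 at 8 h. It ranked 22 by the gain in CPM from 0 h to 8 h. On a scale per kilobase of transcript, its level rose from 9.57 and 7.66 RPKM at 0 h to 165 and 168 at 8 h. That moved it from percentiles 70.8 and 67.6 of all genes in its library to 98.4 and 98.5.

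**Figure D1:**
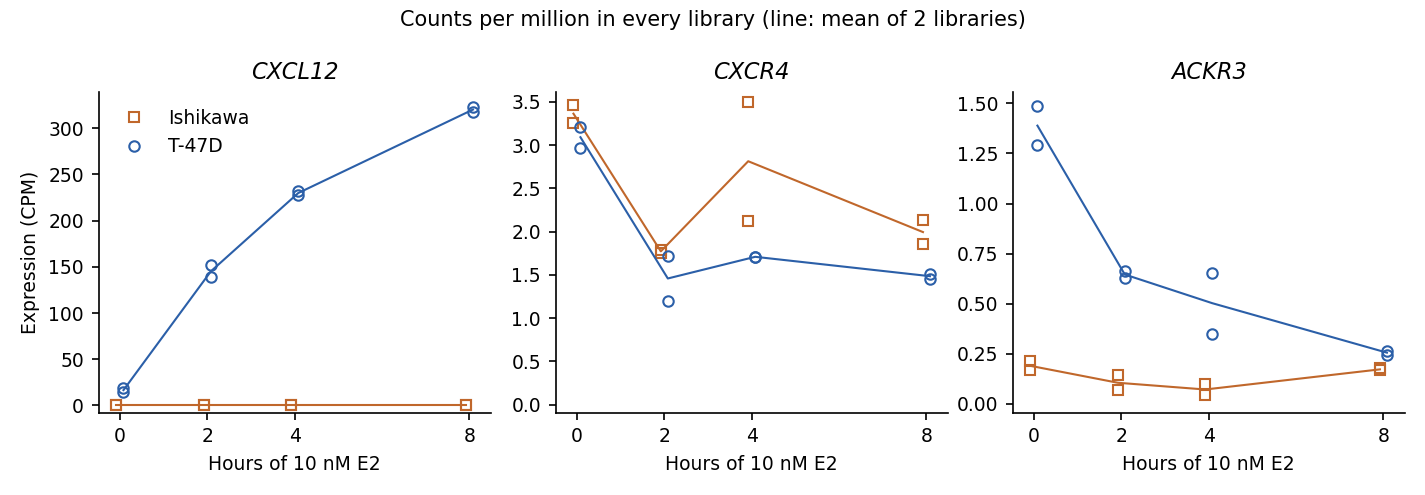
Expression in CPM (y axis) against hours of 10 nM E2 (x axis) for CXCL12, CXCR4 and ACKR3. Each gene has a separate linear y scale that starts just below 0. Each symbol is 1 library, squares for Ishikawa and circles for T-47D, and lines join the means of 2 libraries. CXCL12 stays at 0 in Ishikawa cells and climbs from 16.6 to 320 CPM in T-47D cells, while CXCR4 starts near 3 CPM in both lines and is lower after E2, with the Ishikawa 4 h libraries apart at 2.127 and 3.498 CPM.

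CXCL12 kept rising between treated time points. The step from 2 h to 4 h was 0.67 on the log2 scale (SE 0.0613, adjusted p = 3.5e-06), and the step from 4 h to 8 h was 0.48 (SE 0.0603, adjusted p = 0.000233). Of all T-47D genes tested, 1.94% were called up in the first of these steps and 2.09% in the second. CXCL12 was 1 of 24 genes that were called up in each of the 3 consecutive intervals, against 764 genes called up at 2 h. The mean gained 129 CPM in the first 2 h, or 64.3 CPM per hour. It gained a further 84.8 CPM from 2 h to 4 h, at 42.4 CPM per hour, and 90.3 CPM from 4 h to 8 h, at 22.6 CPM per hour. The first interval thus held 42.3% of the whole gain, the second 27.9% and the third 29.8%. With any 1 library left out, the 8 h value stayed between 4.12 and 4.44 and kept its call.

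CXCR4 was present at a low level in both lines, and the untreated lines could not be distinguished by it. Ishikawa cells had 3.257 and 3.468 CPM at 0 h, from 153 and 166 counts. T-47D cells had 3.21 and 2.97 CPM, from 139 and 120 counts. The T-47D minus Ishikawa difference was -0.12 on the log2 scale (95% interval -0.575 to 0.332, adjusted p = 0.611). Per kilobase, CXCR4 stood at 1.85 RPKM in untreated T-47D cells, where CXCL12 stood at 8.62 RPKM. The ratio of ligand to receptor RNA in T-47D cells went from 4.65 at 0 h to 86.2 at 2 h, 117 at 4 h and 187 at 8 h, on RPKM with canonical transcript lengths. With the summed length of all exons in place of the canonical transcript, CXCL12 had 2.70 RPKM at 0 h and CXCR4 1.07, so the size of the ratio depends on the transcript model.

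In T-47D cells CXCR4 fell at 2 h and was lower at all 3 treated time points. After 2 h it had 1.20 and 1.714 CPM, from 56 and 71 counts. After 4 h it had 1.709 and 1.706 CPM, from 107 and 86 counts, and after 8 h 1.456 and 1.511 CPM, from 71 and 74 counts. All 6 treated libraries lay below both untreated ones, and the treated groups overlapped in part. The log2 fold change was -1.10 at 2 h (SE 0.215, adjusted p = 0.00204), -0.86 at 4 h (SE 0.205, adjusted p = 0.00567) and -1.06 at 8 h (SE 0.211, adjusted p = 0.000909). Of all genes tested, 4.4% were called down at 2 h, 10.4% by 4 h and 14.3% by 8 h. The later steps were 0.24 from 2 h to 4 h (adjusted p = 0.718) and -0.20 from 4 h to 8 h (adjusted p = 0.725), and neither passed the test. The 2 h call rested on 1 library, since without T-47D 2 h replicate 1 the value was -0.85 (adjusted p = 0.0619).

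In Ishikawa cells CXCR4 was also lower at 2 h and 8 h, with less certain calls. The libraries had 1.757 and 1.784 CPM at 2 h, from 77 and 100 counts. They had 3.498 and 2.127 CPM at 4 h, from 144 and 91 counts, and 1.855 and 2.132 CPM at 8 h, from 111 and 96 counts. The 2 h and 8 h libraries lay below both untreated libraries, whereas one 4 h library lay above them and the other below. The log2 fold change was -0.92 at 2 h (SE 0.234, adjusted p = 0.0374) and -0.76 at 8 h (SE 0.231, adjusted p = 0.0282). It was -0.25 at 4 h (SE 0.228, adjusted p = 0.494), which did not pass, and 14.3% of genes were called in either direction in that contrast. In this line 1.74% of genes were called down at 2 h and 10.1% by 8 h. With the 4 h and 8 h libraries as 1 group, the value was -0.49 (SE 0.215, adjusted p = 0.104), and 25.7% of genes were called in that comparison. Both the 2 h and the 8 h call were lost whenever any of the 4 libraries compared was left out, with an adjusted p of up to 0.265 at 2 h and 0.165 at 8 h.

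**Figure D2:**
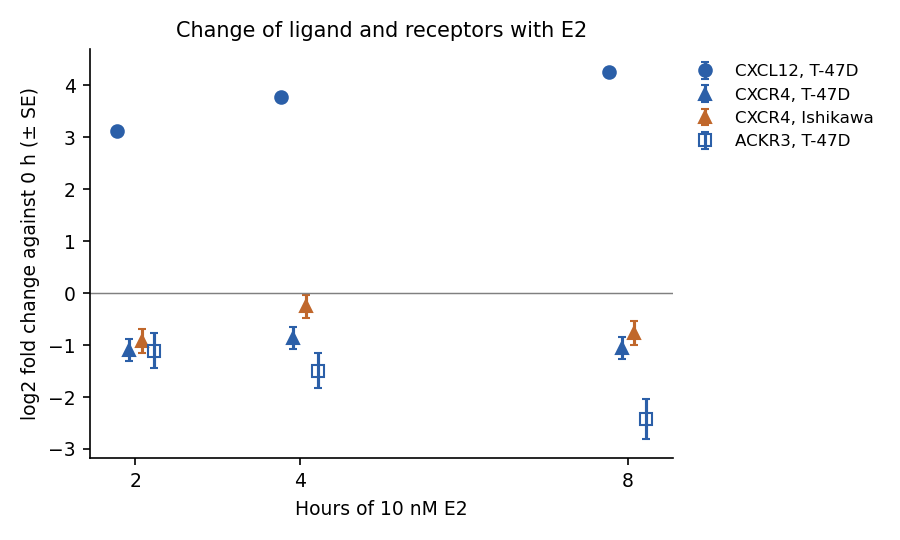
Log2 fold change against 0 h (y axis) after 2, 4 and 8 h of 10 nM E2 (x axis), from edgeR's quasi-likelihood fit of the 8 libraries of a line. Error bars are ± SE and are smaller than the symbol for CXCL12. CXCL12 in T-47D cells lies between 3.12 and 4.27, while the CXCR4 values of both lines and ACKR3 in T-47D cells lie below 0.

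The CXCR4 responses of the lines were then set against each other. The T-47D minus Ishikawa difference in log2 fold change was -0.17 at 2 h (95% interval -0.85 to 0.516, adjusted p = 0.998). It was -0.60 at 4 h (-1.25 to 0.062, adjusted p = 0.34) and -0.30 at 8 h (-0.971 to 0.373, adjusted p = 0.654). None passed the test, and each interval includes differences about as large as the response itself. Of all genes tested, 2.67%, 6.03% and 10% differed between the lines at 2, 4 and 8 h. Ordered by mean over the 8 groups, CXCR4 was highest in untreated Ishikawa cells (3.36 CPM) and next in untreated T-47D cells (3.09 CPM). Then came Ishikawa cells at 4 h (2.81 CPM), 8 h (1.99 CPM) and 2 h (1.77 CPM), and T-47D cells at 4 h (1.71 CPM). The libraries of Ishikawa cells at 4 h overlapped those of both neighbours in this order. CXCR4 was lowest in T-47D cells at 2 h (1.46 CPM), whose libraries overlapped those at 8 h (1.48 CPM).

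ACKR3, the other receptor of CXCL12, fell in T-47D cells as well. Its counts there were 56 and 60 before treatment, 31 and 26 after 2 h, 22 and 33 after 4 h, and 12 and 13 after 8 h. All 6 treated libraries lay below both untreated ones. The log2 fold change was -1.11 at 2 h (SE 0.341, adjusted p = 0.0501), which did not pass. It was -1.49 at 4 h (SE 0.342, adjusted p = 0.00424) and -2.43 at 8 h (SE 0.385, adjusted p = 9.9e-05). Without T-47D 4 h replicate 1 the 4 h value was -1.08 (adjusted p = 0.106) and no longer passed, while the 2 h value passed (adjusted p = 0.0452). Ishikawa cells had 2 to 10 counts of ACKR3 per library, too few for the filter on low counts of that line. Before treatment, ACKR3 had 56 and 60 counts in T-47D cells and 10 and 8 in Ishikawa cells. The fit of all 16 libraries put T-47D cells above by 2.85 on the log2 scale (SE 0.441, adjusted p = 5.64e-06). ACKR3 entered that fit through its T-47D counts, so this p-value is not taken as support. In the same contrast 81.9% of 17090 genes tested differed.

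**Figure D3:**
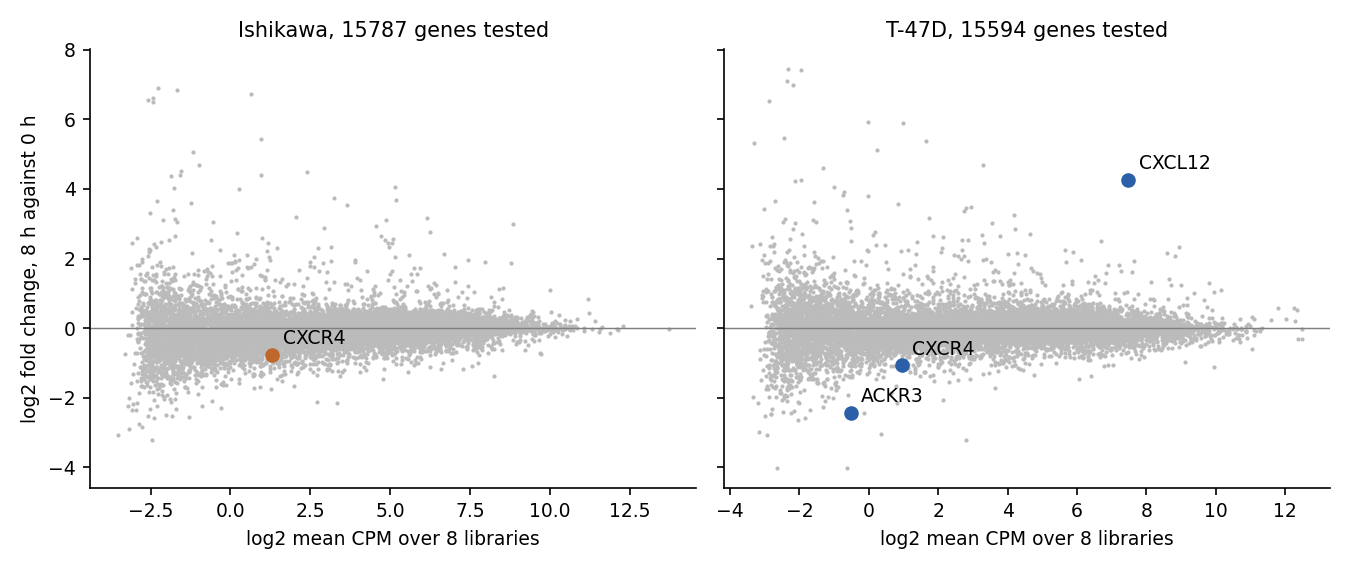
Log2 fold change at 8 h against 0 h (y axis) against log2 mean CPM over the 8 libraries (x axis) for all genes tested in each line. Grey points are single genes and the large points mark CXCL12, CXCR4 and ACKR3. CXCL12 lies at 4.27 in T-47D cells and has no point in Ishikawa cells, where it has 0 counts.

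Of the chemokine ligands tested, CXCL12 alone was called up. Of 43 ligand genes, 6 had enough counts for the test in T-47D cells, and at each treated time point 1 was called up (CXCL12), 1 was called down and 4 were not called. Among all genes tested in that line, 4.9%, 11.1% and 15.4% were called up at 2, 4 and 8 h. The shares called down were 4.4%, 10.4% and 14.3%, and the ligand counts were not tested against these shares. The ligand called down was CCL2, which attracts monocytes, with 2.56 and 3.54 CPM untreated and 1.97 and 1.88 after 8 h. Its log2 fold change was -1.10 at 2 h (adjusted p = 0.00234), -0.94 at 4 h (adjusted p = 0.00353) and -0.66 at 8 h (adjusted p = 0.0227), but DESeq2 gave an adjusted p of 0.0511 at 8 h. Without T-47D 0 h replicate 2 the 8 h value was -0.41 (adjusted p = 0.276), and the call was also lost without either 8 h library. The median over the 6 ligands tested at 8 h was -0.17, beside 0.003 over all genes. In Ishikawa cells 6 ligands were tested and 0 were called at any of the 3 time points. Among all genes of that line, 4.35%, 14.3% and 22.1% were called in either direction at 2, 4 and 8 h. CXCL16, which is made as a membrane-bound chemokine, led the ligand RNA of all 8 Ishikawa libraries with 79.7% to 85.9% of the summed ligand RPKM. It also led both untreated T-47D libraries, with 66% and 66.5%, where CXCL12 took 13.9% and 11%. CXCL12 took 56.1% and 56.6% of that sum after 2 h, 67.6% and 67.2% after 4 h, and 73.7% and 73.9% after 8 h. These shares use canonical transcript lengths. With the summed length of all exons, CXCL12 had mean levels of 23.6 RPKM at 2 h, 37.4 at 4 h and 52.1 at 8 h. The shares were not recomputed on that length, so the leading ligand is given for canonical transcripts only. CXCL16 stood at 106 and 108 CPM in untreated T-47D cells and 107 and 105 after 8 h (log2 fold change -0.01, adjusted p = 0.938). The epithelial chemokine CCL28 stood at 29.2 and 31.1 CPM untreated and 27 and 32.3 after 8 h (log2 fold change -0.02, adjusted p = 0.868).

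**Figure D4:**
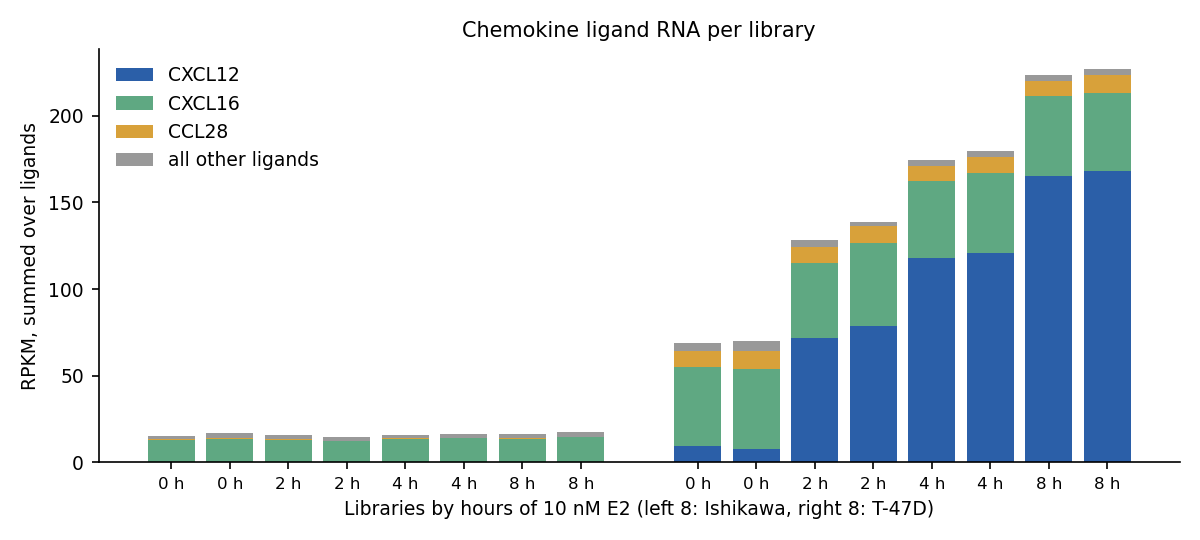
Summed RPKM of 43 chemokine ligand genes (y axis, starting at 0) in each of the 16 libraries (x axis, Ishikawa on the left and T-47D on the right, labelled by hours of E2). Colours split each bar into CXCL12, CXCL16, CCL28 and all other ligands, on canonical transcript lengths. The sum is between 14.7 and 17.6 RPKM in Ishikawa cells and goes from 69.1 and 69.8 to 223 and 227 RPKM in T-47D cells, with the CXCL12 part growing.

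No chemokine receptor gene was called up in either line by edgeR. Of all genes in T-47D cells, 4.9%, 11.1% and 15.4% were called up at 2, 4 and 8 h. In Ishikawa cells these shares were 2.61%, 7.66% and 12%, and the receptor counts were not tested against them. In T-47D cells 13 of 23 receptors were tested, and 1 was called down at 2 h (CXCR4) and 4 at both 4 h and 8 h (CXCR4, ACKR3, ACKR2 and CCR2), where 4.4%, 10.4% and 14.3% of all genes were called down at 2, 4 and 8 h. The median log2 fold change of those tested was -0.64 at 8 h, beside 0.003 over all genes. ACKR2 scavenges inflammatory CC chemokines. It went from 20.9 and 24 CPM to 15.2 and 15.9 at 8 h (log2 fold change -0.53, adjusted p = 0.000137). CCR2, the receptor of CCL2, went from 1.92 and 1.26 CPM to 0.923 and 0.511 (log2 fold change -1.15, adjusted p = 0.018), and its call was lost without T-47D 0 h replicate 1 (-0.81) or T-47D 8 h replicate 2 (-0.78). In Ishikawa cells 7 receptors were tested, and at 8 h 3 were called down and 4 were not called, where 10.1% of all genes were called down. The 3 were CXCR4, ACKR2 and CCR10, the receptor of CCL28. ACKR2 went from 11.3 and 12.6 CPM to 7.60 and 6.75 (log2 fold change -0.74, adjusted p = 0.000924). CCR10 had 15 and 28 counts untreated and 4 and 4 after 8 h (log2 fold change -2.53, adjusted p = 0.0193). Its call was lost without Ishikawa 0 h replicate 2 (-2.02) or either 8 h library, and DESeq2 gave it no adjusted p. With 4 h and 8 h as 1 group its value was -1.52 (adjusted p = 0.0699), which did not pass.

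**Figure D5:**
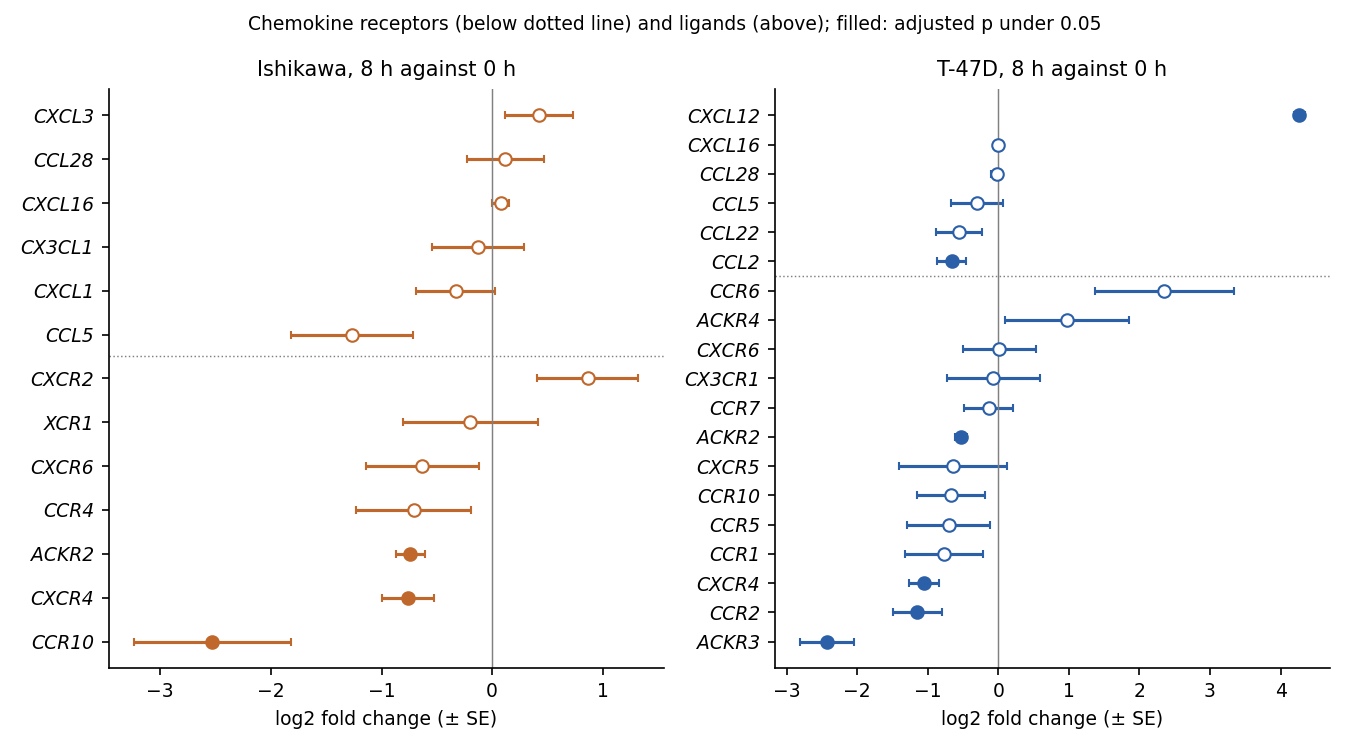
Log2 fold change at 8 h against 0 h (x axis, ± SE) for each chemokine ligand (above the dotted line) and receptor (below it) with enough counts to test, Ishikawa on the left and T-47D on the right, each with its own x scale. Filled symbols passed an adjusted p under 0.05. CXCL12 at 4.27 is the 1 filled symbol to the right of 0, and the filled receptors all lie to the left.

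Genes that act with or after the receptor changed by less, in either line, than CXCL12 did in T-47D cells. Few genes of any kind rose by more in T-47D cells, since CXCL12 ranked 14 of 15594 there at 8 h, counted from the largest rise. Of 16 genes for G proteins, receptor kinases, arrestins and their regulators, 3 of 15 tested rose and 2 fell at 8 h in Ishikawa cells, and 0 of 14 rose and 4 fell in T-47D cells. Of all genes at 8 h, 12% were called up and 10.1% down in Ishikawa cells, and 15.4% up and 14.3% down in T-47D cells. GRK5, a kinase that phosphorylates activated receptors, went from 2.04 and 1.88 CPM to 7.92 and 4.60 at 8 h in Ishikawa cells (log2 fold change 1.68, adjusted p = 0.000274). ARRB1, which encodes an arrestin, went from 12.2 and 13.1 to 21.1 and 20.1 CPM (0.70, adjusted p = 7.11e-05). In T-47D cells ARRB1 rose by 0.24 at 2 h (adjusted p = 0.00233) and by 0.27 at 4 h (adjusted p = 0.000515), and its 8 h value was 0.10 (adjusted p = 0.13). The T-47D minus Ishikawa difference for ARRB1 at 8 h was -0.60 (adjusted p = 6.55e-05). In Ishikawa cells ADRBK2, the older symbol of the kinase GRK3, rose by 0.56 (adjusted p = 0.025), and GNAI1, an inhibitory G protein subunit, changed by -0.32 (adjusted p = 0.00942). The ADRBK2 call was lost without either Ishikawa 0 h library or 8 h replicate 1, and the GNAI1 call without replicate 1 of 0 h (-0.20) or of 8 h. In T-47D cells RGS16, which shortens G protein signalling, changed by -0.75 (adjusted p = 0.0341), but its call was lost when any of the 4 libraries compared was left out, and DESeq2 gave an adjusted p of 0.0685. GNB2 and GNAI2, both G protein subunits, changed by -0.24 and -0.23, and ADRBK1, the older symbol of GRK2, by -0.22. The ADRBK1 call was lost without T-47D 8 h replicate 2 (-0.14).

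Of 9 genes for ubiquitination and sorting of the receptor, 3 rose and 1 fell at 8 h in Ishikawa cells, and 2 rose and 1 fell in T-47D cells. The shares of all genes called at 8 h, 12% up and 10.1% down in Ishikawa cells and 15.4% up and 14.3% down in T-47D cells, stand beside these counts. To 2 decimals, each of these changes was 0.25 or less in size on the log2 scale. USP14, a deubiquitinase, rose in both lines, by 0.25 in Ishikawa cells (adjusted p = 0.00805) and by 0.23 in T-47D cells (adjusted p = 0.00276). In Ishikawa cells the calls of all 4 changed genes of this list were lost without 0 h replicate 2, and also without 8 h replicate 2. The RAB5A call was lost with 4 h and 8 h as 1 group (adjusted p = 0.0554). HGS, RAB5A and STAM each kept the call in 6 of 7 other processing settings. In T-47D cells VPS4B, the gene that fell, lost its call in 3 of 8 fits with 1 library left out (-0.23 to -0.12). USP14 and VPS4A kept theirs in all 8. Among 9 other ligands, cofactors and proteases of the axis, 0 of 3 tested were called in Ishikawa cells at 8 h and 1 of 4 tested in T-47D cells, where 14.3% of all genes were called down. That one was SDC4, a cell-surface proteoglycan that binds CXCL12, which went from 207 and 203 CPM to 159 and 160 (log2 fold change -0.36, adjusted p = 8.89e-06). MIF, another ligand of CXCR4, is listed at 0 in all 16 libraries. Whether reads of MIF could be counted in these data was not tested, so absence of its RNA is not established.

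Among 8 transcription regulators linked to the axis, 1 rose and 2 fell at 8 h in Ishikawa cells, and 3 rose and 3 fell in T-47D cells. Of all genes, 12% were called up and 10.1% down in the Ishikawa contrast and 15.4% up and 14.3% down in the T-47D one. ESR1 went from 171 and 166 CPM to 204 and 208 in T-47D cells (log2 fold change 0.29, adjusted p = 5.68e-05). It went from 242 and 228 to 169 and 177 in Ishikawa cells (-0.45, adjusted p = 6.05e-05). The difference between lines was 0.74 (adjusted p = 3.4e-07). EPAS1, a hypoxia-inducible factor subunit, went from 264 and 281 CPM to 147 and 147 in T-47D cells (-0.89, adjusted p = 4.91e-11). It stood at 18.3 and 18.2 and then 20.2 and 18.3 CPM in Ishikawa cells (0.07, adjusted p = 0.642), and the lines differed by -0.97 (adjusted p = 1.11e-06). FOXC1, a forkhead factor, rose in both lines at 2 h, by 1.39 in Ishikawa cells (adjusted p = 2.77e-05), where 2.61% of genes were called up, and by 1.31 in T-47D cells (adjusted p = 5.29e-05). At 8 h its values were 0.59 (adjusted p = 0.0145) and 0.71 (adjusted p = 0.00654). The Ishikawa 8 h call was lost without 8 h replicate 1 (0.32) or 0 h replicate 2, and the T-47D one without 8 h replicate 2 (0.55). NRF1, whose motif is in the CXCR4 promoter above, was not called at 8 h in either line (0.09 with adjusted p = 0.434 in Ishikawa cells, -0.04 with adjusted p = 0.746 in T-47D cells).

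The genes whose log2 CPM ran most like CXCL12 over the 8 T-47D libraries were KRT13 (Pearson's r = 0.9986), SLC9A3R1 (0.9984), RRS1 (0.9977), PTGES (0.9971) and URB2 (0.9964), of 13097 genes compared. Their log2 fold changes at 8 h were 5.89, 1.01, 1.00, 2.19 and 0.85. For CXCR4 in T-47D cells the closest were RBBP8NL (0.9841), DHRS4-AS1 (0.9796), USP43 (0.9789), CITED2 (0.9788) and CASC10 (0.972), with 8 h values between -0.62 and -0.18. An r over 0.95 was reached by 235 genes with CXCL12 and by 22 with CXCR4. In Ishikawa cells the closest to CXCR4 were CENPO (0.9794), GINS2 (0.9737), CPSF4 (0.9694), TRPC4AP (0.9623) and OXA1L (0.9619), with 8 h values between -0.12 and -0.05. CXCL12 and CXCR4 ran opposite to each other in T-47D cells (r = -0.887 over 8 libraries). These values describe libraries that share a time course, and no test was made of them.

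Leukocytes carry CXCR4 and stromal cells make CXCL12, so their markers are given beside them. Of 9 leukocyte markers, 1 was above 1 CPM in Ishikawa cells (CD68), with a summed level of 2.33 to 3.76 CPM, and CD3E, CD3D, MS4A1 and TYROBP were at 0. Of 9 fibroblast and endothelial markers, 3 were above 1 CPM in Ishikawa cells (COL1A1, COL3A1 and VWF), with 160 to 285 CPM in sum. COL1A1 made up most of this sum, with group means of 170 to 258 CPM. DCN, LUM, PDGFRB, PECAM1 and CDH5 had at most 8 counts in any Ishikawa library. In T-47D cells 2 were above 1 CPM (COL1A1 and LUM), with 77.8 to 103 CPM in sum. There COL1A1 had group means of 75.5 to 89.4 CPM. Of 4 tested in each line, 0 were called up, and 2 were called down in Ishikawa cells at 4 h and at 8 h (COL1A1 and COL3A1, with medians over the 4 of -0.47 and -0.52). Among all Ishikawa genes tested, 6.6% were called down at 4 h and 10.1% at 8 h, and 7.66% and 12% up. In T-47D cells 0 were called down at 2 h and 4 h and 3 at 8 h (LUM, DCN and COL1A1, with a median of -0.57). Among all T-47D genes tested, 4.4%, 10.4% and 14.3% were called down at 2, 4 and 8 h, and 4.9%, 11.1% and 15.4% up. The part of any such cells in the CXCL12 and CXCR4 values was not tested, and fewer cells with a transcript cannot be told apart from less RNA per cell in these bulk libraries.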

How the data were processed

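Per the labels and the study's methods, HISAT2 (alignment to hg19), SAMtools and featureCounts (UCSC Known Genes as annotation) were the tools the authors used. They deposited raw counts per gene, 1 table per cell line. Versions, strand setting and treatment of read pairs are not given in the sources used here. Even numbers made up 71.2% to 74.6% of counts from 1 to 10, so a count need not be 1 fragment, and halved counts were tried. Libraries held 41177912 to 64148903 counts, and no replicate pair was identical.

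Samples were grouped by the line and time of their labels. Tests used edgeR 4.0.16 under R 4.3.3 (filterByExpr, TMM scaling, quasi-likelihood F-test, adjusted p under 0.05, Benjamini-Hochberg over all genes tested). Each line's 8 libraries were fitted together with time as a factor of 4 levels, without a replicate block. This left 15787 genes in Ishikawa and 15594 in T-47D cells. Baseline and differences between lines used all 16 libraries (17090 genes). The labels do not say that replicates were separate cultures, so p-values measure the spread between these samples, which may be technical. CPM used TMM-scaled library sizes over 16 libraries, RPKM the canonical GENCODE transcript on GRCh37 (90.5% of symbols matched), and log2 CPM a prior count of 2. Alternatives were DESeq2 1.42.0, halved counts, RLE scaling, a minimum of 10 counts per library, no low-count filter, the replicate block, only the times compared, Ishikawa 4 h and 8 h as 1 group, and leaving out each library. The fits were tested on simulated counts in which 200 genes were changed by 1 on the log2 scale. They recovered 81.5% of these at 8 h in Ishikawa cells, 80% in T-47D cells and 70.5% for the difference between lines. Genes left unchanged made up 10.9%, 8.57% and 6% of the calls, so calls near the threshold are less certain.

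CXCL12, CXCR4 and ACKR3 are always named, with up to 4 members per list and line that passed, taken by size at 8 h, and the 5 genes most like CXCL12 or CXCR4. Among regulators, NRF1 is named for its motif, and CXCL16, CCL28 and MIF were named after their values were seen. The genes and lists were chosen with earlier results of these data known. Leukocyte markers in T-47D cells are not reported here. Single-cell data were not analysed here.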

Additional observations from a re-analysis of the deposited data

Results flagged for a closer look

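The fit of all 16 libraries gave ACKR3 a T-47D minus Ishikawa difference in its change at 8 h of -2.29 on the log2 scale (95% interval -3.77 to -0.807, adjusted p = 0.0448 from edgeR's interaction test). T-47D cells went from 56 and 60 counts to 12 and 13, and Ishikawa cells had 10 and 8 counts at both times. These Ishikawa counts were too low for ACKR3 to be tested in that line alone, and it entered the joint fit through its T-47D counts, so a difference in response between the lines is not established here. The call was lost with the replicate block (adjusted p = 0.0589) and in 11 of 16 fits that left out 1 library (up to 0.141).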

How the results depend on the processing

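Every CXCL12 call in T-47D cells kept its direction and side of the threshold under all alternatives. Of 892 values under an alternative, 812 were rated unchanged and 4 reversed. Tested values had to keep direction and side of the threshold, while list counts and the CXCL12 bound were rated by closeness to the main value. DESeq2 values without an adjusted p are not among the 892. With the Ishikawa 4 h and 8 h libraries as 1 group, CXCR4 changed by -0.49 (adjusted p = 0.104) in place of -0.76 at 8 h. With halved counts, the lowest fold of CXCL12 in T-47D over Ishikawa cells at 0 h was 131, because the limit of 3 counts then stands for more reads.

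With 1 library left out, the 4 reversals were all in CXCR4. They were 0.055 at 4 h without Ishikawa 4 h replicate 2 and, without T-47D 2 h replicate 1, -0.0065 for 4 h against 2 h, -0.20 for 8 h against 2 h and 0.075 for the difference between lines at 2 h. The ranges for CXCR4 in Ishikawa cells were -0.96 to -0.86 at 2 h, -0.65 to 0.055 at 4 h, -0.87 to -0.65 at 8 h, and 0.27 to 0.97 for 4 h against 2 h, which passed without 4 h replicate 2 (adjusted p = 0.03). In T-47D cells, CXCR4 ranged from -1.37 to -0.85 at 2 h, from -0.0065 to 0.51 for 4 h against 2 h and from -0.20 to 0.31 for 8 h against 2 h, and its difference between lines at 2 h from -0.44 to 0.075. ACKR3 in T-47D cells ranged from -1.20 to -0.99 at 2 h and from -1.98 to -1.08 at 4 h. Its 2 h call passed with no filter (adjusted p = 0.0151), at least 10 counts (0.0309), halved counts (0.0364) and only the times compared (0.0265). List members called at 8 h numbered 15 in Ishikawa cells, with 5 to 16 when 1 library was left out, and 20 in T-47D cells, with 16 to 20. The Ishikawa count was 5 without 0 h replicate 2, 7 without 8 h replicate 1 and 9 without 8 h replicate 2. The cause was not tested.

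The replicate numbers did not pair the samples, with correlations of deviations from -0.261 to 0.062 in Ishikawa cells and from -0.0719 to 0.123 in T-47D cells. In the fit with a replicate block, CXCR4 had -0.92 (adjusted p = 0.0493) at 2 h in Ishikawa cells, CXCL12 kept its calls, and 14 and 20 list members were called at 8 h. DESeq2 gave no adjusted p for ACKR3 at 2 h and 4 h and for its difference between lines at 8 h. CXCR4 and ACKR3 rest on few counts per library, so small differences in them were not detectable at this depth.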
